A study of Mus musculus with 65 samples.

Results

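Dmp1, Mepe, Phex and Sost, 4 genes that mark osteocytes in bone, were followed across 5 tissues and 3 ages of the mouse. A gene's value was the mean log2 signal of the probe sets that carried its symbol alone, a probe set being a small group of probes that mostly lie within an exon. The genes are 4 of the 15830 genes measured and hold 35 of 179614 probe sets (Dmp1 4, Mepe 4, Phex 22, Sost 5). RNA of 25 male wild-type C57BL/6J mice was hybridized to 65 exon arrays, 1 tissue sample per array, to follow how ageing changes exon usage and gene expression. Each of the 13 groups held 5 arrays: tibia bone, thigh skeletal muscle and ventral skin of mice aged 4, 18 and 28 months, and thymus and white adipose tissue of the abdomen of the 2 younger ages. The mice were untreated and carried no engineered allele. How the tibia was cleaned is not given in the sources used here, and the bone arrays held marrow and muscle RNA beside that of bone cells (below). Fewer osteocytes and less RNA per osteocyte cannot be told apart in the values below.

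Osteocytes are the cells that osteoblasts become once they are buried in the matrix they have made, and they reach each other and the bone surface through fine processes. They sense load, control mineralization and regulate phosphate by way of the hormone FGF23. DMP1 and MEPE are integrin-binding matrix phosphoproteins that bind hydroxyapatite, and PHEX is a membrane endopeptidase. Loss of DMP1 or PHEX raises FGF23 and leads to renal phosphate wasting. SOST encodes sclerostin, a secreted inhibitor that binds the Wnt co-receptors LRP5 and LRP6 and thereby restrains bone formation.

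Dmp1 and Mepe lie together on chromosome 5 in the order Dspp, Dmp1, Ibsp, Mepe and Spp1, while Sost is on chromosome 11 and Phex on chromosome X. The 200 bases before each annotated transcript start are shown, 5' to 3', from RefSeq on GRCm38.p6. Whether the 4 genes share regulation was not tested. All 4 genes were found in that table, Dmp1 with 2 starts. Capitals mark 4 motifs, chosen after the sequences had been seen and searched on both strands: CCAAT, the palindrome TTTAAA, the TATA box core TATAAA, and TGTGGT, the core that RUNX factors bind. Their reverse complements are ATTGG for the first, then TTTATA for the TATA box core and ACCACA for the RUNX core.
Dmp1, first start (chr5:104197375-104197574, plus strand): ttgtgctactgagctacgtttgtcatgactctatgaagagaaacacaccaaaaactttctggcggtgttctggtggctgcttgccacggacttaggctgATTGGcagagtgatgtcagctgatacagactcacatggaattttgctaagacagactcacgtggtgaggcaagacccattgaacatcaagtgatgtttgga
Dmp1, second start (chr5:104202417-104202616, plus strand): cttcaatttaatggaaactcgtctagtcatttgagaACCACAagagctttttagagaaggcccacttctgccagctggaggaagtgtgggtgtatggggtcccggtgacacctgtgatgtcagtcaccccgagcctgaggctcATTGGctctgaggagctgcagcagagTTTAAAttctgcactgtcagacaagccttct
Mepe (chr5:104325129-104325328, plus strand): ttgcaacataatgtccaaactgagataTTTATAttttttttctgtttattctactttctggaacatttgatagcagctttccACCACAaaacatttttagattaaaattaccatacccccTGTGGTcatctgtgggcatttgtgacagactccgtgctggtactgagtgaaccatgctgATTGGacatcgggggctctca
Sost (chr11:101967016-101967215, minus strand): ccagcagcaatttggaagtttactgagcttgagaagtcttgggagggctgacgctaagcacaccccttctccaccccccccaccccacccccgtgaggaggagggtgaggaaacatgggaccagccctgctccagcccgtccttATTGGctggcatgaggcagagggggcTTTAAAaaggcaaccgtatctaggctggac
Phex (chrX:157415287-157415486, minus strand): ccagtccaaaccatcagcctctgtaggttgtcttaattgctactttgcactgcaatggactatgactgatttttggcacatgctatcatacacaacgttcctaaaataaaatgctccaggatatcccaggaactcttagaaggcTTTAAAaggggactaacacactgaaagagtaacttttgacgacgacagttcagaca
CCAAT stood in reverse in 4 of these 5 windows, all but that of Phex, and on either strand in 29.3% of 32851 windows of the same length over all genes. In Sost it lay 51 bases and at the second Dmp1 start 52 bases before the transcript start, in Mepe 16 and at the first Dmp1 start 96. TTTAAA was found in 3 of 5 windows (9.4% of all), 24 bases before the start in Sost, 25 at the second Dmp1 start and 50 in Phex. TGTGGT was found in 2 of 5 (11.2% of all), once at the second Dmp1 start and in both orientations in Mepe. TATAAA was found only in Mepe (9.96% of all), in reverse and 167 bases before the start. A match of letters is no evidence of binding, and no array measured it.

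Bone arrays of the same age correlated with each other at a mean r of 0.967 to 0.989 over all genes. The array of mouse A31 at 28 months was the lowest, and the 18-month array of mouse A10 was the lowest of its age at 0.978. In A31 the mean log2 signal of 5 erythroid markers was 5.03, against 9.50 to 10.27 in the other 28-month bone arrays, and that of 9 osteoblast genes was 7.34 against 8.16 to 9.46. In A10 the osteoblast genes averaged 8.14 against 8.42 to 8.84 in the other 18-month arrays. Results are therefore also given without these arrays, though not every result was run without each of them. Neutrophil precursor markers, which belong to marrow, averaged between 11.04 and 11.90 in every bone array.

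The first question was where the 4 genes were expressed. Dmp1 lay between 6.32 and 10.92 in the 15 bone arrays and between 2.62 and 3.47 in the 50 arrays of other tissues. The range of Mepe was 6.14 to 9.80 in bone and 3.01 to 4.08 elsewhere. No bone array overlapped with any other tissue for these matrix genes. Each array has a lower quartile over all probe sets at 3.19 to 3.5, so the gene values outside bone were near the dim end of the arrays. Phex spanned 5.78 to 10.45 in bone and 3.21 to 4.16 elsewhere. Sost spanned 5.63 to 10.17 in bone and 3.16 to 4.66 elsewhere, and its gap between the dimmest bone array, A10, and the brightest other array, a 28-month muscle, was 0.98. Without A10 this gap was 2.59.

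**Figure D1:**
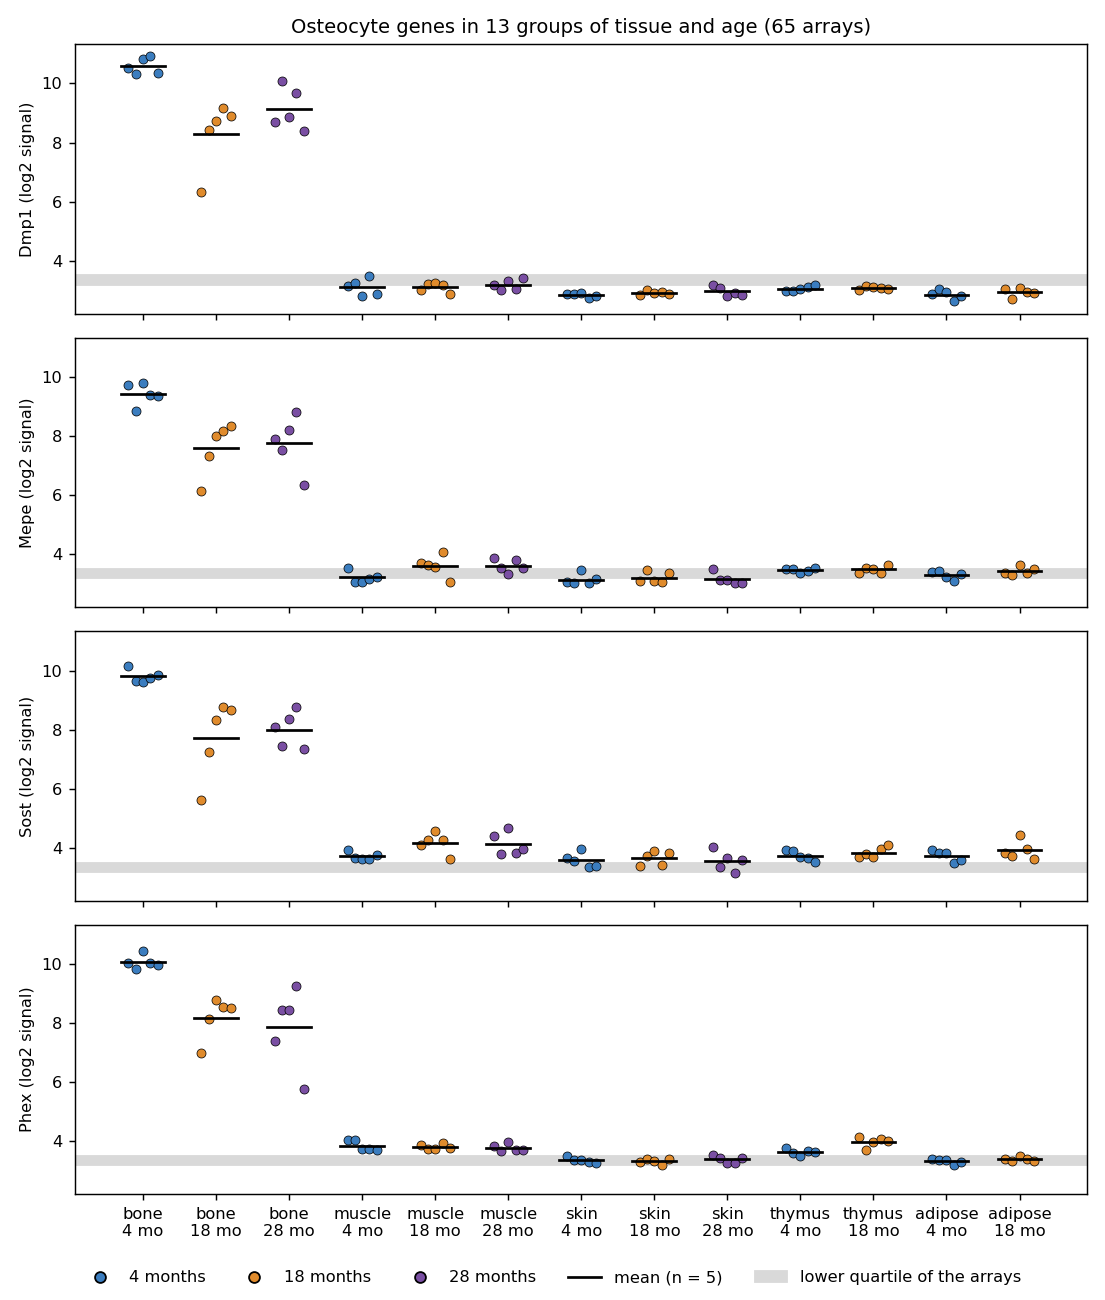
Gene value (log2 signal, vertical axes) of Dmp1, Mepe, Sost and Phex in 13 groups of tissue and age, with a point for each of 65 arrays and a line at each mean (n = 5). The 15 bone arrays lie above all 50 others for each gene. The other tissues lie close to the grey band, the range of the arrays' lower quartiles over all probe sets (3.19 to 3.5).

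All 4 genes were higher in bone in each of the 10 comparisons at matched age, by the rule of at least 2-fold and an adjusted p below 0.05 in limma. The difference was 37.1- to 214-fold for Dmp1, 15.9- to 77.7-fold for Mepe, 16.9- to 106-fold for Phex and 11.9- to 74.7-fold for Sost. The highest adjusted p among these 40 values was 3.62e-16, and the smallest fold of each gene but Phex was against muscle at 18 months. Of all genes, 15%, 14.7% and 15.5% were higher in bone than in muscle by the same rule at 4, 18 and 28 months, 10.2%, 11.8% and 14.8% higher than in skin, 9.51% and 8.74% than in thymus, and 10.9% and 11.4% than in adipose tissue. In order of level, bone at 4 months came first for every gene, followed by the older bone groups and then the 10 other groups. Of the 12 neighbouring pairs in that order 10 overlapped for each gene, the exceptions being the step from bone at 4 months to the next bone group and the step from bone to the first other tissue. Phex came next in thymus at 18 months (3.99 ± 0.17, SD, n = 5) and Sost in muscle at 18 months (4.16 ± 0.35). Between ages of the other tissues the 4 genes moved by -0.09 to 0.45 over 8 comparisons each, none past the threshold (lowest adjusted p 0.269).

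The second question was how the genes changed with age in bone. Dmp1 was at 10.51, 10.31, 10.84, 10.92 and 10.34 in the 4-month arrays. At 18 months it was at 6.32 in A10 and at 8.41, 8.72, 9.17 and 8.90 in the others. At 28 months it was at 8.70, 10.07, 8.88, 9.66 and 8.40, the last in A31. All 10 older arrays lay below the 5 young ones, and the 2 older ages overlapped.

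Mepe was at 9.72, 8.84, 9.80, 9.40 and 9.35 at 4 months. At 18 months it was at 6.14 in A10 and at 7.32, 8.01, 8.16 and 8.35 in the others, and at 28 months at 7.91, 7.53, 8.20, 8.82 and, in A31, 6.34. The young arrays were again above all older ones, but the highest 28-month array (8.82) was only just below the lowest young array (8.84).

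Phex, the endopeptidase, was at 10.03, 9.85, 10.45, 10.04 and 9.96 at 4 months. It was at 6.98 in A10 and at 8.13, 8.77, 8.55 and 8.51 in the other 18-month arrays, and at 7.40, 8.45, 8.44, 9.25 and, in A31, 5.78 at 28 months. Here A31 was the lowest of all bone arrays, well below the other 4 arrays of its age.

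Sost, the Wnt inhibitor, was at 10.17, 9.64, 9.60, 9.75 and 9.86 at 4 months. At 18 months A10 was at 5.63 and the others at 7.25, 8.34, 8.78 and 8.66, and at 28 months the arrays were at 8.10, 7.44, 8.37, 8.77 and 7.33. A10 was thus the lowest bone array for Dmp1, Mepe and Sost. Without A10 the 18-month mean was 8.80 ± 0.32 for Dmp1, 7.96 ± 0.45 for Mepe and 8.26 ± 0.70 for Sost (SD, n = 4). The young group had the smallest spread for each gene (SD 0.23 to 0.38, against 0.61 to 1.34 in the older groups).

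**Figure D2:**
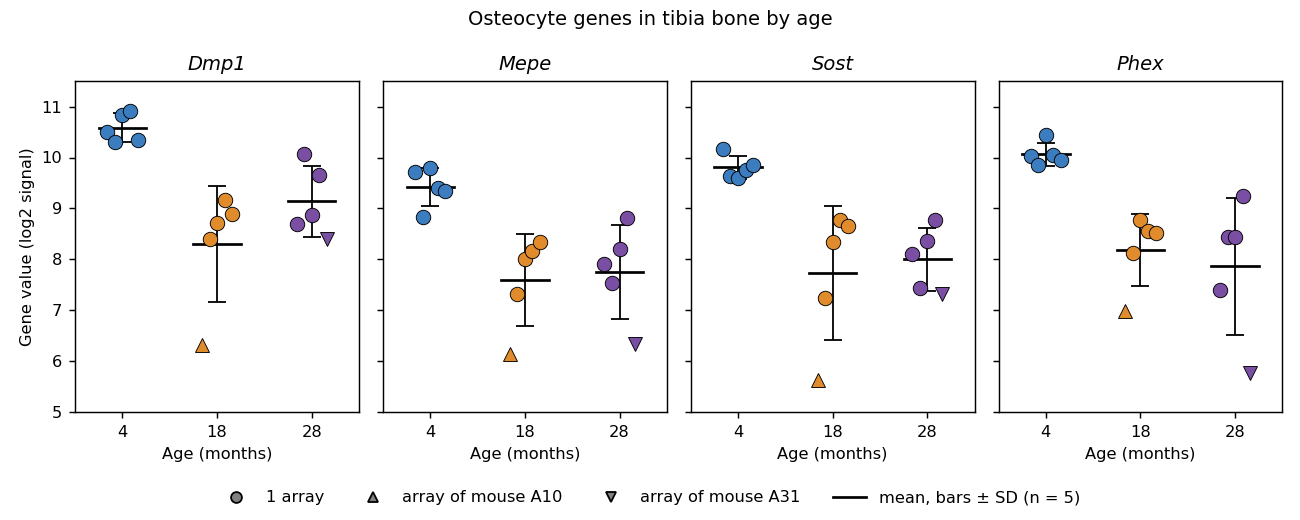
Gene value (log2 signal, vertical axis) of the 4 genes in tibia bone at 4, 18 and 28 months, with a point for each array, a line at the mean and bars of ± SD (n = 5). The upward triangles are the 18-month array of A10 and the downward ones the 28-month array of A31, and the 5 young arrays lie above all 10 older arrays in each panel.

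In the 4- to 18-month period all 4 genes fell, while 0.846% of all genes fell (134 of 15830, limma adjusted p below 0.05). The change of Dmp1 was -2.28 ± 0.25 on the log2 scale (SE), or 4.86-fold lower (adjusted p = 3.88e-09). That of Sost was -2.07 ± 0.29 or 4.2-fold (adjusted p = 2.53e-06), that of Phex -1.88 ± 0.27 or 3.67-fold (4.28e-06) and that of Mepe -1.83 ± 0.26 or 3.54-fold (2.53e-06). Without A10 the falls were smaller, at -1.78 ± 0.17 for Dmp1, -1.57 ± 0.26 for Phex, -1.55 ± 0.23 for Sost and -1.46 ± 0.23 for Mepe, and all passed (highest adjusted p 0.000122, 0.512% of all genes). The median change of all genes was 0.00, with quartiles at -0.09 and 0.13.

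These errors come from a fit in which all 13 groups share 1 spread per gene, and the groups differed in spread: the SD of the 4 genes was 0.05 to 0.39 outside bone and 0.23 to 1.34 in bone. In a fit of the 15 bone arrays alone the SE of the 4- to 18-month change rose to between 0.45 and 0.51. Dmp1 then passed (adjusted p = 0.0265), and Sost (0.0599), Mepe (0.0705) and Phex (0.104) did not, with 0.891% of all genes called as falling. Without A10 in this fit Dmp1 passed (0.0188), and Sost (0.0532), Mepe (0.131) and Phex (0.208) did not (0.512% of all genes). Without both A10 and A31, an omission chosen after seeing the data, all 4 passed in the bone arrays alone, with adjusted p of 0.0059 for Dmp1, 0.0141 for Phex, 0.0188 for Mepe and 0.0257 for Sost (1.18% of all genes). In a two-sided exact permutation test of each gene's arrays, 5 against 5, the p was 0.00794 for each of the 4 genes, the smallest that this design allows (0.0159 without A10). The older arrays all lay below the young ones in 2.75% of all genes, and in 4.04% without A10.

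In the 18- to 28-month period Dmp1 was higher by 0.84 ± 0.25 (adjusted p = 0.0383) in the fit of all arrays, in which 2.43% of all genes rose. This call was lost when any of 4 single arrays was left out. The difference was 0.34 ± 0.17 without A10 (adjusted p = 0.377), 0.60 without A28 (0.216), 0.71 without A30 (0.118) and 0.86 without A11 (0.0536). In the bone arrays alone it was 0.84 ± 0.45 (adjusted p = 0.3), and the exact permutation p was 0.238. The changes of Mepe (0.16 ± 0.26), Sost (0.27 ± 0.29) and Phex (-0.32 ± 0.27) did not pass (adjusted p 0.598 to 0.799), and without A10 those of Mepe and Sost were -0.20 and -0.25.

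Over the whole 4- to 28-month period all 4 genes were again lower, beside 6.46% of all genes, a larger share than in the earlier period. The change of Phex was -2.20 ± 0.27 (4.6-fold, adjusted p = 2.93e-08), that of Sost -1.80 ± 0.29 (3.48-fold, 1.08e-05), that of Mepe -1.66 ± 0.26 (3.16-fold, 4.29e-06) and that of Dmp1 -1.44 ± 0.25 (2.72-fold, 3.31e-05). All 4 also passed in the bone arrays alone (adjusted p 0.0103 to 0.0391, with 8.45% of all genes falling). When A31 alone was left out of that fit Dmp1 did not pass (-1.26 ± 0.47, adjusted p = 0.0857, 5.28% of all genes falling), and without both A10 and A31 all 4 passed, with a highest adjusted p of 0.0088 (7.59% of all genes). The exact permutation p was 0.00794 for each gene, and all older arrays lay below the young ones in 8.70% of all genes. The 4- to 18-month and 4- to 28-month comparisons share the 5 young arrays, so they are not independent of each other.

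**Figure D3:**
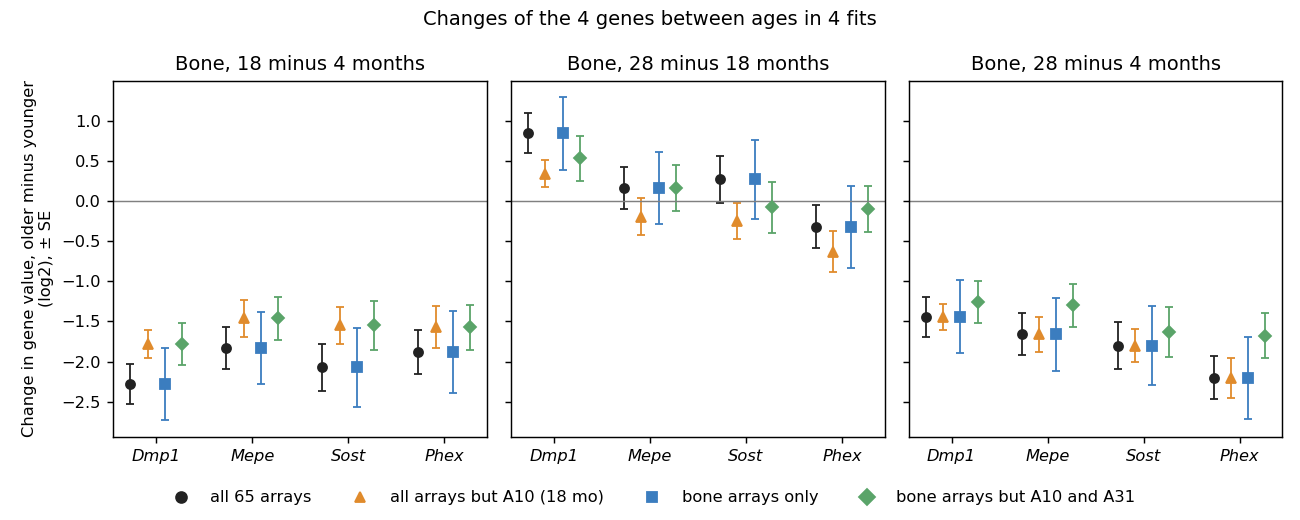
Change in gene value (log2, older minus younger, ± SE, vertical axis) of the 4 genes between ages in bone, in 4 fits: all 65 arrays, all but the 18-month array of A10, the 15 bone arrays, and the bone arrays without A10 and A31. The changes from 4 months are between -2.28 and -1.26 in every fit shown, while those between 18 and 28 months lie on both sides of 0.

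Whether the 4 genes changed to different extents was tested on the difference of each pair of genes, in 18 exact permutation tests (6 pairs in 3 periods, two-sided, not adjusted). The p was 0.0397 to 0.762, and 1 test was below 0.05. That was Dmp1 against Phex between 18 and 28 months, where the change of Dmp1 was higher by 1.16. As 18 tests were run, a difference between the genes was not established at this number of arrays.

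The fall was compared with the change of the same genes in the other tissues. In the 4- to 18-month period the bone change was below that of muscle, skin, thymus and adipose tissue for all 4 genes, with differences of -2.52 to -1.84 on the log2 scale (16 in all, highest adjusted p 0.00726). Of all genes, 1.82%, 0.227%, 0.569% and 0.790% had such a difference against these tissues. In the 4- to 28-month period the 8 differences against muscle and skin were -2.23 to -1.53 (highest adjusted p 0.00172, with 15.5% and 9.48% of all genes), and in the 18- to 28-month period none of 8 passed (lowest adjusted p 0.142). Outside bone the genes were near the dim end of the arrays, where a fall could hardly have been measured. These differences come from the fit of all arrays, whose shared spread includes tissues that varied less than bone. They were not tested with the spread of bone alone, with which 3 of the falls to 18 months did not pass (above). The 4-month bone arrays came from mice that gave no other tissue, while the mice of all older bone arrays gave other tissues too. The part of this separate set of young mice in the falls and differences was not tested.

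The probe sets within each gene were then compared, since an age change can be restricted to some exons. All 22 probe sets of Phex fell between 4 and 18 months (-2.35 to -1.59) and between 4 and 28 months (-2.52 to -1.37). All 4 of Dmp1 (-2.79 to -1.76 in the earlier period) and all 5 of Sost (-2.40 to -1.88) fell in both periods as well. Of the 4 Mepe probe sets 3 fell, at -2.69 to -1.93 and at -2.28 to -1.35. Of all probe sets 0.659% and 2.70% fell in these periods. The other, 5298917, did not pass (-0.61 ± 0.42 and -0.92 ± 0.42). It was at 6.33 ± 0.55 (SD) in young bone but also at 4.24 to 5.52 in other tissues, where no group mean of the other Mepe probe sets was above 3.23. Without A10, 17 of 22 Phex, 4 of 5 Sost and the same numbers of Dmp1 and Mepe probe sets fell between 4 and 18 months. The share of all probe sets that fell was not counted without A10.

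**Figure D4:**
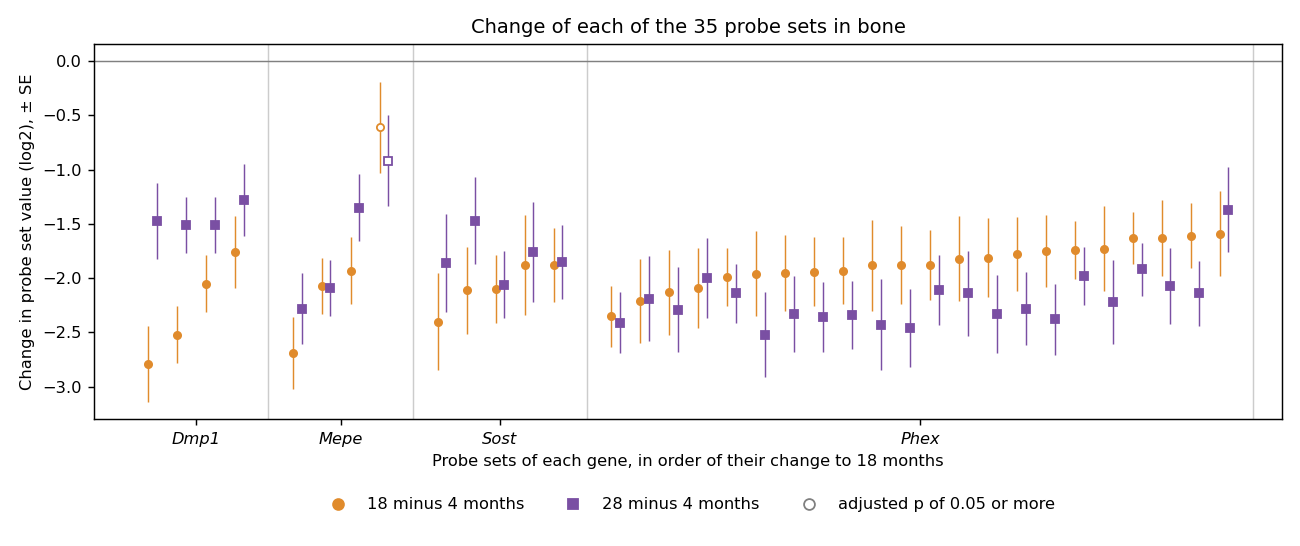
Change in probe set value (log2, ± SE, vertical axis) in bone from 4 to 18 months (circles) and from 4 to 28 months (squares) for each of the 35 probe sets, ordered within each gene. Filled symbols have an adjusted p below 0.05, and the only open ones are those of Mepe probe set 5298917.

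Phex probe set 4433131 gave signal in every tissue. It was at 11.80 ± 0.06 (SD) in young bone and at 10.17 ± 0.41 and 9.88 ± 0.75 at 18 and 28 months, against 7.75 to 8.59 in the other tissues, where the median Phex probe set had its highest group mean at 3.79. A test of exon usage (diffSplice F-test on the 15 bone arrays) called none of the 4 genes in any period. Their smallest adjusted p was 0.371, that of Mepe between 4 and 18 months (F = 2.54), and their smallest unadjusted p was 0.0665. The F-test called 3.26%, 0.945% and 17.3% of 14184 genes in the 4- to 18-, 18- to 28- and 4- to 28-month periods. With 1 array left out, F in the 4- to 18-month period was 4.18 for Mepe and 0.0726 for Phex (0.108 with all 15). The p of that run is not known here. In that period Mepe probe set 5298917 changed by 1.62 relative to the other Mepe probe sets. By the diffSplice test of single probe sets its unadjusted p was 0.0135 and its adjusted p 0.395.

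Arrays of the same age differed in the 4 genes together. Over the 15 bone arrays, after removal of the age means, r was 0.87 between Mepe and Sost and between Mepe and Phex, 0.74 between Dmp1 and each of the others, and 0.65 between Sost and Phex. The genes of an array share 1 tissue piece, so these values are descriptions. Without A10 and A31 (13 arrays) r stayed at 0.83 between Mepe and Sost and was 0.62 between Phex and each of Dmp1 and Mepe. It was then 0.08 between Dmp1 and Sost, 0.25 between Dmp1 and Mepe and 0.39 between Sost and Phex, so 3 of the 6 pairs were lower by over 1.5 times without those arrays.

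Across the 13 group means the nearest genes to each of the 4 were the other 3, among 14184 genes with at least 3 probe sets. Pearson's r was 0.999 between Mepe and Sost and 0.992 to 0.997 for the other pairs, values set largely by the contrast of bone with the other tissues. Ibsp, the bone sialoprotein gene next to Dmp1, and Abca13, an ABC transporter gene, followed for Dmp1 at 0.991. Kng1, encoding kininogen, followed for Mepe (0.991), Sost (0.989) and Phex (0.989). The fifth was 9830134C10Rik for Mepe and Sost and Col11a2, a collagen XI chain, for Phex (0.985). Kng1 had a bone mean of 5.23, 4.78 and 4.71 at 4, 18 and 28 months.

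Within ages, over the 15 bone arrays, Mepe went most closely with Sema5a, a semaphorin gene (r = 0.972), Tgfb2 (0.945) and Rapgef4 (0.943). Sema5a was at 7.0 to 7.52 in young bone, at 4.66 in A10 and 5.43 to 6.07 in the other 18-month arrays, and at 4.69 in A31 and 5.83 to 6.53 in the other 28-month arrays. Phex went with Slit2, a guidance factor (0.973), Galnt10 (0.962), Bmp3 (0.959), the collagen lysyl hydroxylase gene Plod2 (0.954) and Wisp1 (0.948). Dmp1 was nearest to Parp1 (0.913), and Sost to Gas5 (0.884). Without A10 the nearest gene was Cttn for Dmp1 (0.929), Rapgef4 for Mepe (0.966), Tgfb2 for Sost (0.865) and Slit2 for Phex (0.973). The search was not repeated without A31, the lowest bone array for Phex, so the part of A31 in these values is not known.

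A list of 13 other genes known from osteocytes was compared with the 4. It was less particular to bone, with a mean log2 signal of 6.82 in young bone and 6.54 in 4-month skin. The mean of the 4 genes was 9.97 and 3.23 in these groups. This list and those below were chosen with earlier results of these data known, so their counts are descriptions. Of the 13 genes 7 fell and 0 rose between 4 and 18 months, with a median change of -0.84. Between 4 and 28 months 6 fell and 2 rose, with a median of -0.42. Over all genes 0.846% fell in the earlier period and 6.46% in the whole one. Without A10, 4 fell in the earlier period, beside 0.512% of all genes. The bone arrays alone gave 4 of 13 in that period and 7 in the whole one, beside 0.891% and 8.45% of all genes.

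Tnfrsf11b, encoding osteoprotegerin, the decoy receptor that blocks osteoclast formation, was at 6.49 to 7.33 in young bone, at 3.87 in A10 and 4.68 to 5.30 in the other 18-month arrays, and at 4.30 to 5.46 at 28 months. Its change was -2.09 ± 0.37 to 18 months (adjusted p = 0.000327) and -2.14 ± 0.37 to 28 months (4.1e-05), and both passed in the bone arrays alone (0.00192 and 0.000249). Dkk1, a further Wnt inhibitor, was at 6.97 to 7.71 in young bone, at 4.83 to 6.45 at 18 months and at 4.14 to 6.33 at 28 months. Its change was -1.55 ± 0.23 (adjusted p = 7.23e-06) and -2.0 ± 0.23 (3.88e-09), and in the bone arrays alone the adjusted p was 0.0955 and 0.00578. The transcription factor gene Irx5 also fell (-1.01 ± 0.21 and -1.10 ± 0.21), as did Wnt1 (-0.40 ± 0.10 and -0.58 ± 0.10), which was close to the arrays' lower quartile at 3.32 in young bone. These 4 genes had the smallest adjusted p of the list between 4 and 28 months, and the 2 that rose are not among them.

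Fgf23, the phosphate hormone gene, stayed at a low level. It was at 4.92 to 5.12 in young bone, 4.79 to 5.30 at 18 months and 4.88 to 6.11 at 28 months, with A31 the highest. Its rise of 0.38 ± 0.12 to 28 months passed (adjusted p = 0.0251), but without A31 it was 0.21 ± 0.11 and did not (0.232), nor did it in the bone arrays alone (0.116). Of 20 genes of phosphate handling and mineralization measured, which include Fgf23, Ibsp and Spp1, 4 fell and 0 rose to 18 months and 4 fell and 1 rose to 28 months (medians -0.47 and -0.21). Over all genes 0.846% fell and 0.341% rose to 18 months, and 6.46% fell and 8.14% rose to 28 months. Without A31, 1 fell and 0 rose to 28 months, beside 535 and 833 of all 15830 genes. Alpl, the alkaline phosphatase gene, was at 8.20, 7.20 and 6.93 at the 3 ages and fell to 28 months (-1.26 ± 0.41, adjusted p = 0.0284), but without A31 its change was -0.80 ± 0.39, which did not pass (0.203).

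Ibsp and Spp1 lie on either side of Mepe. Ibsp was at 10.41 to 11.45 in young bone, 9.82 to 10.62 at 18 months and 10.23 to 11.42 at 28 months. It fell by 0.70 ± 0.14 to 18 months (adjusted p = 0.00219) and rose by 0.60 ± 0.14 from there to 28 months (0.00628), though neither passed in the bone arrays alone (0.184 and 0.17). Spp1, encoding osteopontin, was at 10.90 to 11.98, 10.68 to 11.14 and 12.09 to 12.49 at the 3 ages and rose by 1.29 ± 0.30 between 18 and 28 months (adjusted p = 0.00594, and 0.000444 in the bone arrays alone). Dspp stayed at 2.96 to 3.55 in all bone arrays, near the dim end.

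Of 23 genes of Wnt signalling around sclerostin, 2 fell and 0 rose to 18 months, and 3 fell and 1 rose to 28 months (medians -0.13 and -0.14), beside 0.846% of all genes that fell to 18 months and 6.46% that fell and 8.14% that rose to 28 months. The fallers to 28 months were Dkk1 and Wnt1, which are also in the list of other osteocyte genes, and Wnt10b (-0.67 ± 0.14). Lrp6, the co-receptor that sclerostin binds, rose by 0.34 ± 0.11. Without A31 0 rose to 28 months, beside 833 of all 15830 genes. Of 9 osteoblast genes measured, set against the same shares, 1 fell to 18 months, Ibsp, and 2 fell to 28 months (medians -0.67 and -0.57). Those were Alpl and Sp7 (-1.09 ± 0.33), and 0 of 9 fell without A31 or in the bone arrays alone. Col1a1, the main collagen gene of bone, was at 13.09 to 13.15 in young bone and 12.10 to 12.86 at 18 months, and at 9.25 in A31 against 11.56 to 12.92 in the other 28-month arrays. Its fall to 28 months did not pass (-1.29 ± 0.52, adjusted p = 0.0854).

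Markers of other cells in the bone samples moved between the same ages. Macrophage markers were higher at 28 months than at 4 in 7 of 7 (6 without A31), with a mean of the list of 8.71 to 9.15 in young, 9.11 to 9.33 in 18-month and 10.09 to 10.80 in 28-month arrays. Osteoclast genes rose in 6 of 11 (7.37 to 7.71 in young and 7.92 to 8.33 in 28-month arrays), among them Ctsk, the collagen-degrading cathepsin K, by 1.39 ± 0.31. Skeletal muscle markers rose in 5 of 12 between 4 and 28 months (median 2.23), 2 of 12 in the bone arrays alone, and in 0 of 12 between 4 and 18 months (median 1.49). Their mean varied from 5.92 to 9.40 in young, 7.12 to 10.85 in 18-month and 8.10 to 10.33 in 28-month bone. Between 4 and 28 months 833 of all 15830 genes rose and 535 fell without A31, and 1781 rose and 1338 fell in the bone arrays alone. In the fit of all arrays 8.14% of all genes rose and 6.46% fell in this period. Chondrocyte genes fell in 5 of 10, with Col2a1 at -1.75 ± 0.20, and erythroid markers in 2 of 5, with a median of -1.18, and -0.32 without A31, and in 0 of 5 in the bone arrays alone. Thymocyte markers rose in 5 of 6 and fell in 1, adipocyte markers rose in 2 of 8, neutrophil precursor markers in 1 of 10 and 0 without A31, and B cell markers fell in 1 of 6 (Rag1, -3.01 ± 0.29). Of 7 keratinocyte markers none passed.

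Within ages the 4 genes moved with the other osteocyte genes, at r of 0.87 for Phex, 0.83 for Mepe, 0.65 for Sost and 0.64 for Dmp1 over 15 arrays. With osteoblast genes r was 0.94 for Phex, 0.74 for Mepe, 0.57 for Dmp1 and 0.47 for Sost. With skeletal muscle markers r was -0.27 to 0.08. Phex also went with erythroid markers (0.80) and against neutrophil precursor markers (-0.76), and Mepe likewise (0.68 and -0.58). Without A10, r with neutrophil precursor markers was -0.88 for Phex, -0.78 for Mepe, -0.64 for Sost and -0.53 for Dmp1. With erythroid markers it was then 0.49 to 0.85, and with osteoblast genes 0.50 to 0.97. These r were not computed without A31, which had the lowest erythroid and osteoblast means and the lowest 28-month Phex and Mepe. The part of A31 in them is therefore not known. The part of other cell types in the falls was not tested.

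**Figure D5:**
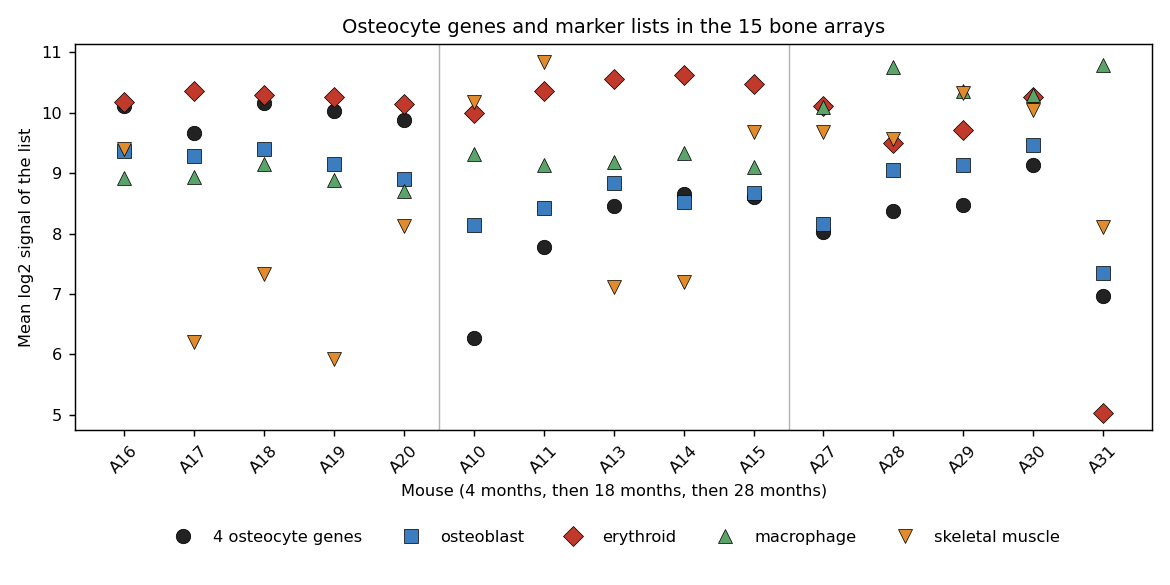
Mean log2 signal (vertical axis) of the 4 osteocyte genes and of 4 marker lists in each of the 15 bone arrays, by mouse and age. The osteocyte genes are lowest in A10 and A31, the erythroid markers drop in A31 alone, and the muscle markers vary within each age.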

How the data were processed

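Affymetrix Mouse Exon 1.0 ST arrays held 65 tissue samples. The deposited log2 values cover 194293 probe sets of the core set. For these the authors used Partek, with an RMA background step that allows for GC, then quantile normalization and median polish, on mm9 annotation. As quantile normalization sets the probe signals of all arrays to 1 distribution, changes are relative to the array. The summarized probe set values still differed between arrays, with lower quartiles of 3.19 to 3.5. The number of arrays limits the precision. Of these probe sets, 179614 (92.4%) had 1 gene symbol and were averaged to 15830 genes.

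Groups came from the sample titles. limma 3.58.1 (R 4.3.3) was fitted to 13 group means over all arrays, with Benjamini-Hochberg adjustment over all genes and calls below 0.05. Exon usage was tested by diffSplice on the bone arrays, in genes with at least 3 probe sets and with no filter on dim ones. Single genes were tested by exact permutation (SciPy 1.17.1), and tests were checked on simulated data.

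Replicate numbers did not pair mice across ages. Within an age, arrays of the same number came from the same mouse in some tissues. Deviations of bone correlated at 0.03 to 0.16 with muscle and 0.07 to 0.28 with skin at 28 months, and at -0.11 to 0.22 with adipose tissue at 18 months. The number also paired thymus with adipose tissue at 4 months and, in 4 of 5 numbers, bone with skin at 18 months (-0.23 to 0.48). The members and lists were chosen with earlier results of these data known. Named genes were the 4 members, up to 4 genes per list with the smallest adjusted p between 4 and 28 months, Spp1, Ibsp, Fgf23, Col1a1 and the 5 nearest genes per member. Others were named after their values were seen. Alternatives were the median over probe sets, filters on dim probe sets, array weights, recentring, a mouse or replicate block, bone arrays only, renormalization within bone and leaving out arrays. RefSeq promoters on GRCm38.p6 were used for sequence only.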

Additional observations from a re-analysis of the deposited data

Results flagged for a closer look

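Among 52 groups of 5 arrays (4 genes in 13 groups), 2 held an array that stood far from the rest of its group, where chance gives about 1 group in 20. Dmp1 was at 6.32 in the 18-month bone array of A10, below the other 4 at 8.41 to 9.17. Mepe was at 3.51 in the 28-month skin array of A27, a value near the dim end of the arrays.

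The change of the 4 genes in bone differed from that in another tissue in 24 of 32 tests of the difference itself (limma, adjusted p below 0.05), with bone lower in each. Between 4 and 18 months 1.82%, 0.227%, 0.569% and 0.790% of all genes were lower in this way against muscle, skin, thymus and adipose tissue. Between 4 and 28 months the shares were larger, at 15.5% against muscle and 9.48% against skin. Between 4 and 18 months the difference for Dmp1 was -2.28 against muscle, -2.35 against skin, -2.29 against thymus and -2.35 against adipose tissue. For Mepe it was -2.22, -1.89, -1.85 and -1.96 against the same tissues in that order, for Sost -2.52, -2.14, -2.17 and -2.26, and for Phex -1.84, -1.84, -2.21 and -1.94. Between 4 and 28 months the difference against muscle was -1.53 for Dmp1, -2.06 for Mepe, -2.22 for Sost and -2.13 for Phex. Against skin it was -1.57, -1.68, -1.78 and -2.23 for these genes in turn. The other 8 tests, between 18 and 28 months, did not pass. The groups share bone arrays, and the genes were near the dim end of the arrays outside bone. The tests use a spread shared by all tissues and were not repeated with that of bone alone. The 4-month bone arrays came from mice that gave no other tissue, and the part of this was not tested.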

How the results depend on the processing

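The falls of all 4 genes from 4 months kept their direction under every alternative run, and those to 18 months of Dmp1 passed in each. The calls of Mepe, Sost and Phex to 18 months were lost in the bone arrays alone (-1.83, -2.07 and -1.88), there also without A10 (-1.46, -1.55 and -1.57), and after quantile normalization within bone (-1.85, -2.10 and -1.90). By construction these fits use the spread of bone alone. The fall of Dmp1 to 28 months (-1.26) was lost in the bone arrays without A31. The rise of Dmp1 from 18 to 28 months did not pass with the median over probe sets (0.75), with recentred arrays (0.78), without A10 (0.34), A11 (0.86), A28 (0.60) or A30 (0.71), in the bone arrays alone (0.84, 0.34 without A10, 1.02 without A31, 0.53 without both), after normalization within bone (0.80) or without both arrays (0.53). In that period Sost turned to -0.25 with array weights, to -0.08 without both arrays in either fit and to -0.25 in bone arrays without A10, Mepe to -0.20 in the last, and Phex to 0.20 in bone arrays without A31. Differences of changes in that period turned for Sost against muscle (-0.05 without both arrays, -0.16 with weights) and skin (-0.05 with weights) and for Mepe against muscle (-0.06 with weights), and that of Sost against skin to 18 months (-1.97) did not pass with the median over probe sets. Other causes were not tested.

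Leaving out 1 array at a time gave changes to 18 months of -2.01 to -1.46 for Mepe, -2.33 to -1.55 for Sost and -2.02 to -1.57 for Phex, and to 28 months of -1.68 to -1.26 for Dmp1. From 18 to 28 months the ranges were 0.34 to 1.05 for Dmp1, -0.20 to 0.52 for Mepe, -0.25 to 0.53 for Sost and -0.67 to 0.20 for Phex. The differences of changes in that period spanned -0.21 to 0.51 for Mepe, -0.22 to 0.57 for Sost and -0.64 to 0.23 for Phex against muscle, and -0.15 to 0.57, -0.16 to 0.63 and -0.74 to 0.13 against skin.

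Counts over all genes moved more. To 18 months, leaving out 1 array gave 16 to 121 that rose and 81 to 161 that fell, array weights 277 and 487, and 27 rose without both arrays, 27 in the bone arrays alone and 26 after normalization within bone. The bone arrays gave 14 and 81 without A10 and 98 and 243 without A31. From 18 to 28 months the ranges were 204 to 460 and 125 to 390, with 205 and 165 without both arrays and 1302 and 1159 with weights, while 141 fell in the bone arrays alone, 111 there without A31, and 172 after normalization within bone. To 28 months they were 833 to 1309 and 535 to 1090, with 852 and 565 without both arrays, 2288 and 2715 with weights and 1953 and 1971 in the bone arrays without A10, while 539 fell with the median over probe sets and 2479 with recentred arrays.

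With the replicate number as a block the changes to 18 months were -2.28 for Dmp1 (adjusted p = 5.13e-09), -1.83 for Mepe, -2.07 for Sost and -1.88 for Phex, and no call of the 4 genes changed. Numbers paired some tissues of 1 age but no ages, and arrays of 1 mouse correlated at 0.0468. Settings that left out A10, A31 or both, and the fits of bone arrays without them, were chosen after seeing the data, apart from leaving out each array in turn.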
